A study of Rattus norvegicus with 6 samples.

Results

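The heat shock response genes described here were 10 genes picked by symbol from the expression table of rat pulmonary veins (PVs): Hspa8, Hsph1, Dnajb1, Bag3, Hsp90aa1, Hsp90ab1, Hspb1, Hspd1, Hspe1 and Cirbp. All 10 were found among the 17833 genes of the table, and all 10 passed the filter on low values. Bulk RNA-seq had been performed on PVs of the right upper lung lobe from wild-type Sprague-Dawley rats, 3 with bilateral pulmonary vein banding (BPVB group) and 3 sham-operated (sham group). Surgery was at postnatal day 1 and the veins were taken at postnatal day 21. Sham rats had the same opening of the chest and exposure of the veins but no band. Both groups were anaesthetised by cooling on ice and rewarmed after surgery, so the shams also carried a change of temperature early in life. The time of day of collection is not in the sample labels. Each library came from a whole piece of vein, so fewer cells of a type and less RNA per cell cannot be told apart. The comparison asked which of these chaperone genes differed between banded and sham veins.

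Heat shock proteins are molecular chaperones, which fold new proteins, hold damaged ones in solution and pass them on for repair or breakdown. Heat shock factor 1 (HSF1) is kept inactive by chaperones, and when misfolded proteins draw these away it binds heat shock elements, repeats of GAA in alternating orientation, and switches the genes on. Several of the proteins are also made without stress: HSC70 (Hspa8) and HSP90β (Hsp90ab1) are among the most abundant proteins of most cells. In muscle, chaperones help build and renew the contractile apparatus, and BAG3 with small heat shock proteins clears its worn parts. Cirbp is the counterpart of the group, an RNA-binding protein induced by mild cold and lowered by heat.

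The promoters of 9 of the 10 genes (all but Hsp90aa1) were matched in RefSeq (assembly GRCr8), from 250 bases before to 50 bases after the start site. A heat shock element was searched as 3 units, GAA, TTC and GAA or TTC, GAA and TTC, with any 2 bases between neighbouring units. Each form is the other read on the opposite strand, so both strands were covered. It was present in 4 of the 9 windows, Hspa8, Hsph1, Hspd1 and Hspe1, and in 0.798% of all 33469 promoters. No such match lay in the windows of Dnajb1, Bag3, Hsp90ab1, Hspb1 and Cirbp. Only 2 neighbouring units were required in a looser search, which matched 7 of the 9 windows and 15.9% of all promoters. The stretches below are shown because they hold the 3-unit elements found (Hspd1 shares that of Hspe1), and each ends at the base before the start site. The capitals mark the GAA and TTC units, read 5′ to 3′ on the plus strand.
Hspa8, chr8:50080264-50080513, plus strand: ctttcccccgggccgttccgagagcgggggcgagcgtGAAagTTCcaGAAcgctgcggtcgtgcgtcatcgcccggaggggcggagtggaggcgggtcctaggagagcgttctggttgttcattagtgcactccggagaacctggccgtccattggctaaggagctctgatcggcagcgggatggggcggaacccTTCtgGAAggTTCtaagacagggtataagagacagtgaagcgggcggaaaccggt
Hsph1, chr12:10427218-10427367, plus strand: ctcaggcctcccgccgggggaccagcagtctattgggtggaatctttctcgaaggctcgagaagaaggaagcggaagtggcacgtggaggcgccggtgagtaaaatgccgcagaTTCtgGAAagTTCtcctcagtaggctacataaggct
Hspe1, chr9:64084177-64084326, plus strand: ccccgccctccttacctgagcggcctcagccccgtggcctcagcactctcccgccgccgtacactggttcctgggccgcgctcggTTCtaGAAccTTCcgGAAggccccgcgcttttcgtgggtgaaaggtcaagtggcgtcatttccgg

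The Hspa8 window held a pair of elements, GAAagTTCcaGAA at 213 to 201 bases and TTCtgGAAggTTC at 55 to 43 bases before the start site. The Hsph1 element, TTCtgGAAagTTC, lay 36 to 24 bases before its start. Hspd1 and Hspe1 lie head to head on opposite strands of chromosome 9, and their windows share 211 bases. They therefore share a single run of 4 units, which reads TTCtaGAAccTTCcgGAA at 65 to 48 bases before the start of Hspe1 and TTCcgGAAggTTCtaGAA at 242 to 225 bases before that of Hspd1. A match of letters is a description and not evidence of binding.

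All 10 genes were well expressed. Their levels, in FPKM (fragment counts divided by gene length and library total, so that genes can be compared with each other), ran in the sham group from 20.9 for Dnajb1 to 734 for Hspa8. Each gene had 1096 to 49728 fragments in every library, and the coefficient of variation within a group was 0.967% to 6.07%. The order in the sham group was Hspa8, Hsp90ab1, Hspb1, Hspe1, Hsp90aa1, Hspd1, Bag3, Hsph1, Cirbp and Dnajb1. In the BPVB group Hsp90ab1 stood above Hspa8 in every library, and the other places were the same. Within both groups Cirbp and Dnajb1 were the only neighbours in this order whose libraries overlapped.

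**Figure D1:**
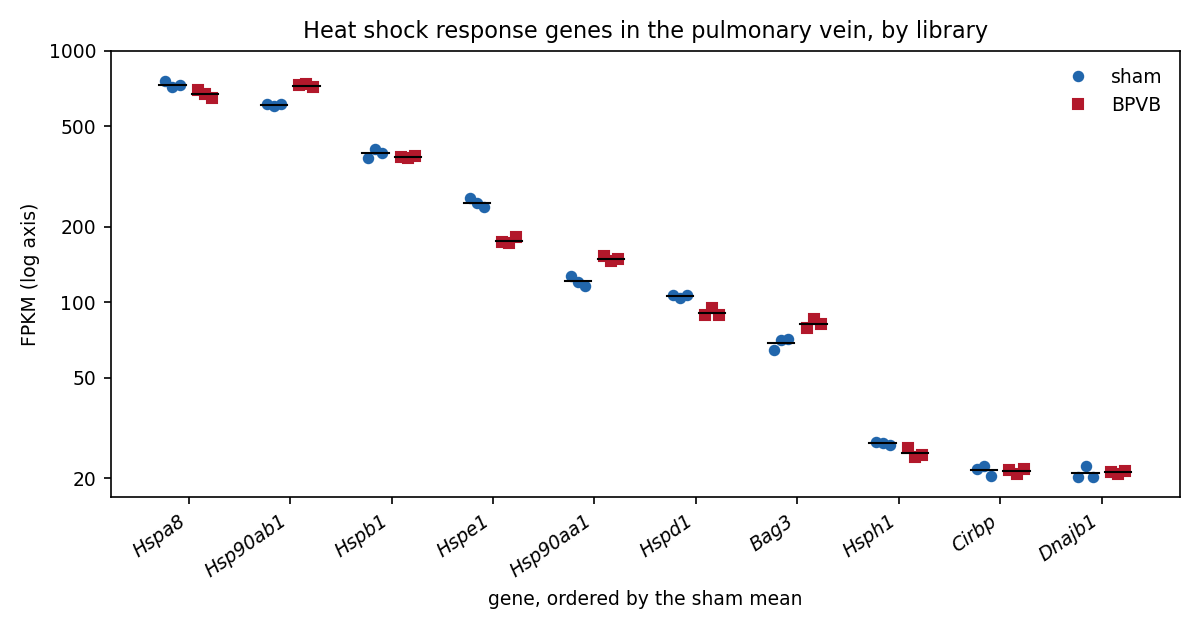
FPKM (log axis) of the 10 heat shock response genes in each library, with circles for the 3 sham libraries, squares for the 3 BPVB libraries and a bar at each group's mean. Hspa8 is the highest gene in the sham libraries and Hsp90ab1 in the BPVB libraries, and Hspe1 shows the widest gap between the groups.

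The 10 genes did not move one way. In the BPVB group, 3 were higher (Hsp90aa1, Hsp90ab1 and Bag3), 3 were lower (Hspa8, Hspd1 and Hspe1) and 4 did not pass the test (Hsph1, Dnajb1, Hspb1 and Cirbp), at an adjusted p under 0.05 in limma. Of all 15150 genes tested, 17.2% were higher and 14.3% lower. The 10 genes are all highly expressed, and among the 3505 genes that averaged 20 FPKM or more, a comparison chosen after the values were seen, the shares were 24.5% and 27.9%. Called genes were thus 60% of the 10, beside 31.5% of all genes and 52.4% of those at a high level. The libraries of the groups did not overlap for 7 of the 10 genes (70%), beside 45.6% of all genes tested and 63.4% of those at a high level. The median of the absolute log2 fold changes was 0.176 for the 10 genes, 0.179 for all genes tested and 0.155 for those at a high level, and the median of the signed changes was −0.031 beside 0.025 for all genes. Differences were small: 0 of the 10 were DEGs, which need also an absolute log2 fold change above 1, beside 3.27% of all genes and 1.71% of those at a high level. That count was 0 as well at an unadjusted p under 0.05 and by limma-voom, and 7 of the 10 had an unadjusted p under 0.05 whatever their size.

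**Figure D2:**
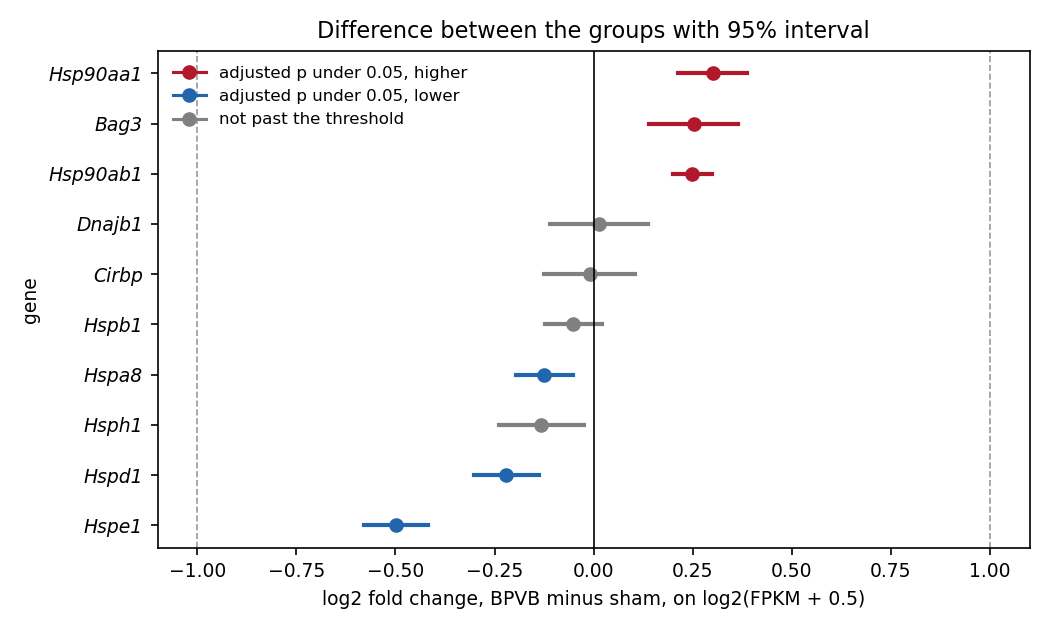
Log2 fold change (BPVB minus sham, on log2(FPKM + 0.5)) of each gene, as a point with its 95% interval, with dashed lines at −1 and 1. The intervals of Hsp90aa1, Hsp90ab1 and Bag3 lie above 0, those of Hspa8, Hspd1, Hspe1 and the uncalled Hsph1 below 0, and none reaches a dashed line.

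At the core of the cytosolic HSP70 machine, Hspa8 was slightly lower and its partners Hsph1 and Dnajb1 were not called. Hspa8 encodes HSC70, the constitutive HSP70, which binds exposed stretches of unfolded proteins with the use of ATP. It stood at 698, 673 and 648 FPKM in the BPVB group and at 755, 719.9 and 728 FPKM in the sham group. Every BPVB library was below every sham library, with a gap between the nearest ones that was smaller than the spread within the BPVB group. Its level was 673 ± 24.8 FPKM against 734 ± 18.4 FPKM (mean ± SD, n = 3 each), 8.3% lower, with a log2 fold change of −0.12 (SE 0.032, adjusted p = 0.016, limma). This call was lost without sham replicate 1 (−0.10, adjusted p = 0.061, limma), with TPM (−0.09, adjusted p = 0.066) and with quantile normalization (−0.13, adjusted p = 0.051). Hspa8 is the gene with the pair of elements printed above.

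Hsph1, an HSP110 that swaps the nucleotide of HSP70 and helps it to take aggregates apart, lay at 26.3, 24.1 and 24.8 FPKM in the BPVB group and at 27.8, 27.7 and 27.0 FPKM in the sham group. The groups did not overlap, but the difference did not pass the test (log2 fold change −0.13, 95% interval −0.24 to −0.02, adjusted p = 0.062, limma). It passed without BPVB replicate 1 (−0.17, adjusted p = 0.039, limma), with median of ratios scaling (−0.16, adjusted p = 0.028) and in limma-voom (−0.14, adjusted p = 0.038). Dnajb1 encodes an HSP40 that hands substrates to HSP70 and starts its ATPase cycle, and its transcript is among those that heat raises most. It lay at 21.2, 20.7 and 21.4 FPKM in the BPVB group and at 20.2, 22.4 and 20.3 FPKM in the sham group. The BPVB libraries fell inside the range of the sham libraries, with a log2 fold change of 0.01 and a 95% interval of −0.11 to 0.14 (adjusted p = 0.89, limma).

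Bag3, a co-chaperone that releases substrates from HSP70 and links it with small heat shock proteins to autophagy, was higher. It stood at 78.7, 86.0 and 81.7 FPKM in the BPVB group and at 64.5, 70.8 and 71.3 FPKM in the sham group. Every BPVB library lay above every sham library. The level was 82.1 ± 3.64 FPKM against 68.9 ± 3.81 FPKM (mean ± SD, n = 3 each), 19.1% higher, with a log2 fold change of 0.25 (SE 0.049, adjusted p = 0.0045, limma).

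Both cytosolic HSP90 genes were higher. HSP90 acts late in folding, on kinases, steroid receptors and other clients that HSP70 passes to it, and Hsp90aa1 is its stress-inducible form. Hsp90aa1 lay at 153, 146 and 148 FPKM in the BPVB group and at 127, 120.5 and 116 FPKM in the sham group. The lowest BPVB library was above the highest sham library. Hsp90aa1 was at 149 ± 3.27 FPKM against 121 ± 5.55 FPKM (mean ± SD, n = 3 each), 23.2% higher, with a log2 fold change of 0.30 (SE 0.038, adjusted p = 3.9e-04, limma). Hsp90ab1, the constitutive form, lay at 728, 735 and 716 FPKM in the BPVB group and at 615, 604 and 614 FPKM in the sham group. The gap between the groups was wider than the spread within either. Hsp90ab1 was at 726 ± 10.1 FPKM against 611 ± 6.42 FPKM (mean ± SD, n = 3 each), 18.9% higher, with a log2 fold change of 0.25 (SE 0.022, adjusted p = 4.2e-05, limma). The ratio of the inducible to the constitutive gene was 0.205 ± 0.0057 in the BPVB group and 0.198 ± 0.0089 in the sham group (mean ± SD, n = 3 each; exact two-sided permutation test, p = 0.3). The ratios of the groups overlapped, and the smallest p that 3 libraries against 3 allow is 0.1.

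Hspb1 encodes HSP27, a small heat shock protein that holds unfolded proteins without ATP and guards the actin cytoskeleton. It lay at 378, 375 and 382 FPKM in the BPVB group and at 376, 408 and 394 FPKM in the sham group. The groups overlapped, and the log2 fold change of −0.05 did not pass the test (95% interval −0.12 to 0.02, adjusted p = 0.25, limma; −0.02 without sham replicate 2).

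Both genes of the mitochondrial chaperonin were lower. HSP60 (Hspd1) forms the barrel in which proteins of the mitochondrial matrix fold, and HSP10 (Hspe1) closes it. Hspd1 lay at 88.6, 95.1 and 89.3 FPKM in the BPVB group and at 107, 104 and 107 FPKM in the sham group. All BPVB libraries were below all sham libraries. Hspd1 was at 91.0 ± 3.57 FPKM against 106 ± 1.69 FPKM (mean ± SD, n = 3 each), 14.2% lower, with a log2 fold change of −0.22 (SE 0.036, adjusted p = 0.0017, limma). Hspe1 lay at 173, 173 and 182 FPKM in the BPVB group and at 259, 248 and 239.8 FPKM in the sham group. The groups stood farther apart than the libraries within either. Hspe1 was at 176 ± 5.12 FPKM against 249 ± 9.52 FPKM (mean ± SD, n = 3 each), 29.2% lower, with a log2 fold change of −0.50 (SE 0.036, adjusted p = 1.2e-05, limma), the largest difference among the 10 genes. The ratio of Hspd1 to Hspe1 was 0.512, 0.551 and 0.491 in the BPVB group, whereas the sham libraries had 0.415, 0.420 and 0.445. Every BPVB ratio was above every sham ratio (difference of 0.28 on the log2 scale, exact two-sided permutation p = 0.1, the smallest that 3 against 3 allow). The genes share the region between their starts, part of which is printed above. Whether the counting used the strand is not given in the sources used here.

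Cirbp lay at 21.5, 20.8 and 21.7 FPKM in the BPVB group and at 21.8, 22.3 and 20.4 FPKM in the sham group. The BPVB libraries fell inside the sham range, and the log2 fold change was −0.01 with a 95% interval of −0.12 to 0.11 (adjusted p = 0.90, limma). Rbm3, the related RNA-binding protein that cold also induces, had a log2 fold change of 0.06 (adjusted p = 0.14, limma), which passed with TPM alone (0.09, adjusted p = 0.040).

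The summed FPKM of the 10 genes was nearly the same while its make-up differed. The sum was 2344 ± 26.1 FPKM in the BPVB group and 2352 ± 18.9 FPKM in the sham group (mean ± SD, n = 3 each), and the libraries of the groups overlapped. As a share of a library's fragments, not divided by gene length, the 10 genes made up 0.452% to 0.465% with banding. In the sham libraries that share was 0.443% to 0.451%, which came close without overlapping. The HSP90 genes together were at 864 to 882 FPKM with banding and at 724 to 742 FPKM without it, or 37.2% to 37.5% of the sum against 30.9% to 31.3%. The chaperonin pair was at 262 to 271 FPKM against 347 to 366 FPKM, or 11.1% to 11.7% of the sum against 14.8% to 15.4%. In none of these shares did the groups overlap.

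**Figure D3:**
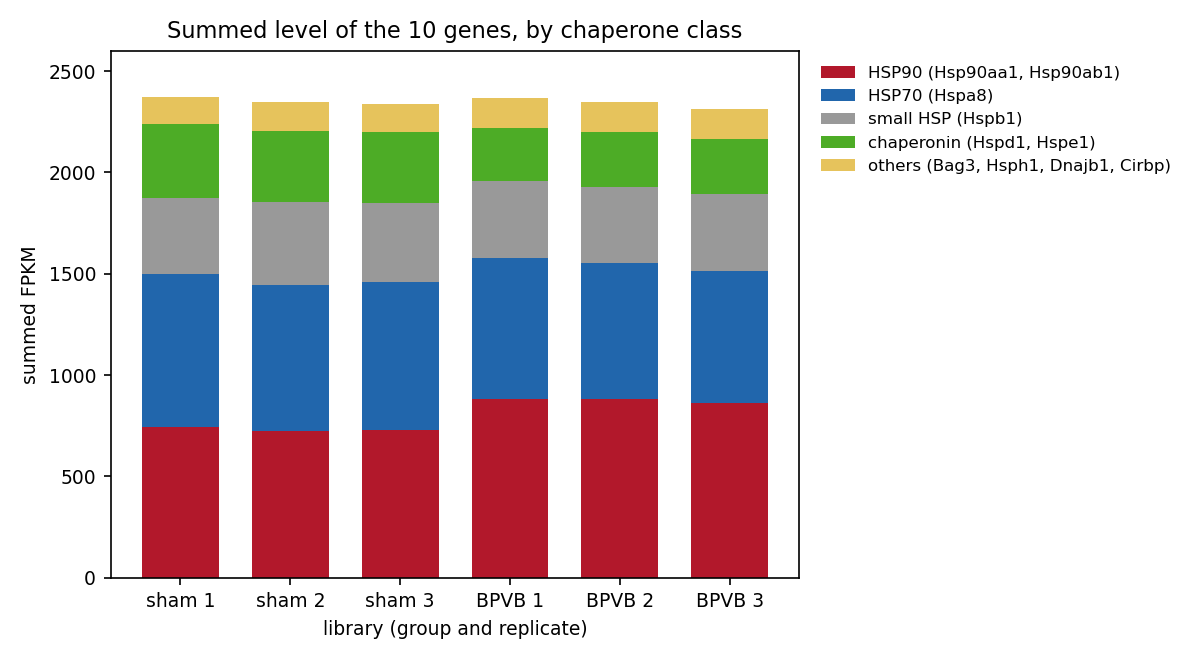
Summed FPKM of the 10 genes in each library, stacked by chaperone class. The 6 totals lie between 2315 and 2373 FPKM, with a taller HSP90 segment and a shorter chaperonin segment in the 3 BPVB libraries.

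Within libraries, Hspa8 and Hsp90ab1 exchanged places. The ratio of Hspa8 to Hsp90ab1, computed after their values were seen, was 0.959, 0.915 and 0.906 in the BPVB group, whereas the sham libraries had 1.23, 1.19 and 1.18. The constitutive HSP70 was thus above the constitutive HSP90 in all sham libraries and below it in all BPVB libraries. A ratio within a library does not change when each library is scaled by 1 factor.

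**Figure D4:**
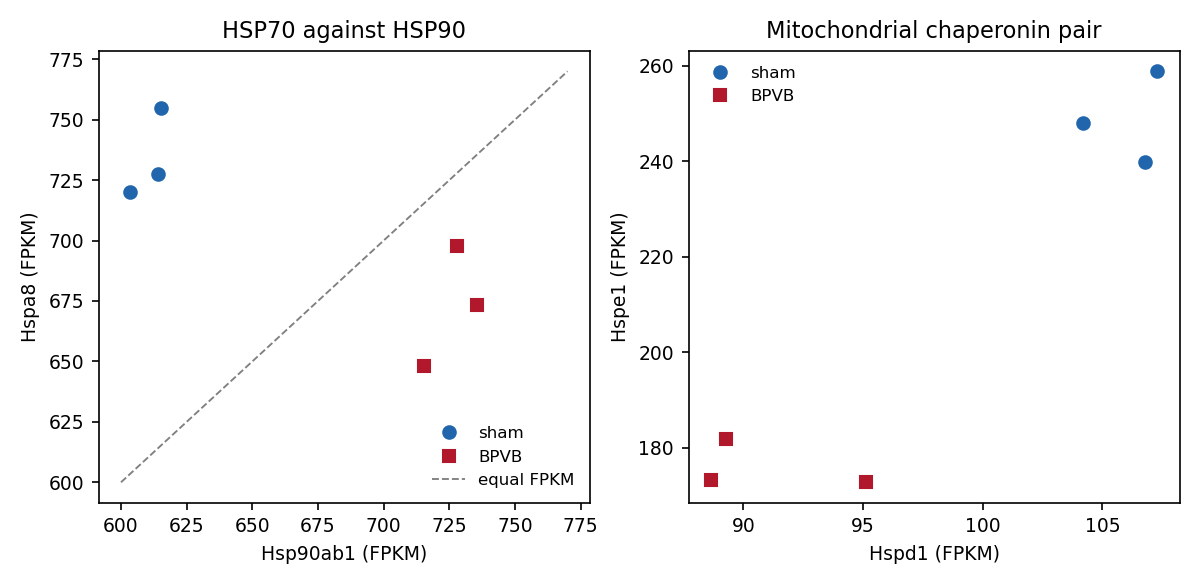
FPKM of Hspa8 against Hsp90ab1 (left, with a dashed line of equal FPKM) and of Hspe1 against Hspd1 (right), 1 point per library. The axes do not start at 0. The sham libraries lie above the line and the BPVB libraries below it, and on the right the BPVB libraries lie below the sham libraries on both axes.

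No library was high or low for the 10 genes as a whole. Averaged over them, a library's deviation from its group's mean was between −0.02 and 0.02 on the log2 scale. The widest single deviations were those of Dnajb1 in sham replicate 2 (0.10) and Bag3 in sham replicate 1 (−0.09). The genes whose log2 levels over the 6 libraries were most like the mean of the 9 genes other than Cirbp were Tm9sf2 (Pearson r = 0.994), B4galt4 (0.992), Fam107b (0.983), Mia3 (0.983) and N6amt1 (0.981). Those most like Cirbp were Rbmx2 (0.998), Klhl13 (0.978), Plekhf1 (0.978), Cd2bp2 (0.977) and Prpf38a (0.977). These were the highest of 12147 genes over only 6 libraries that also hold the group difference, so they are given as a description. The mean of the 9 genes spanned only −0.017 to 0.025 on the log2 scale, as higher and lower genes cancelled in it. Likeness to that mean is therefore not likeness to each of the 9 genes.

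The wider chaperone network also moved in both directions. Of 88 further genes on 10 lists, 86 were in the table and 85 were tested. In the BPVB group 12 of these (14.1%) were higher and 23 (27.1%) lower, beside 17.2% and 14.3% of all genes tested and 24.5% and 27.9% of those that averaged 20 FPKM or more, and 50 did not pass. With TPM in place of the deposited scaling 17 were higher and 15 lower. The median log2 fold change over the 85 genes was −0.01, beside 0.025 over all genes tested.

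**Figure D5:**
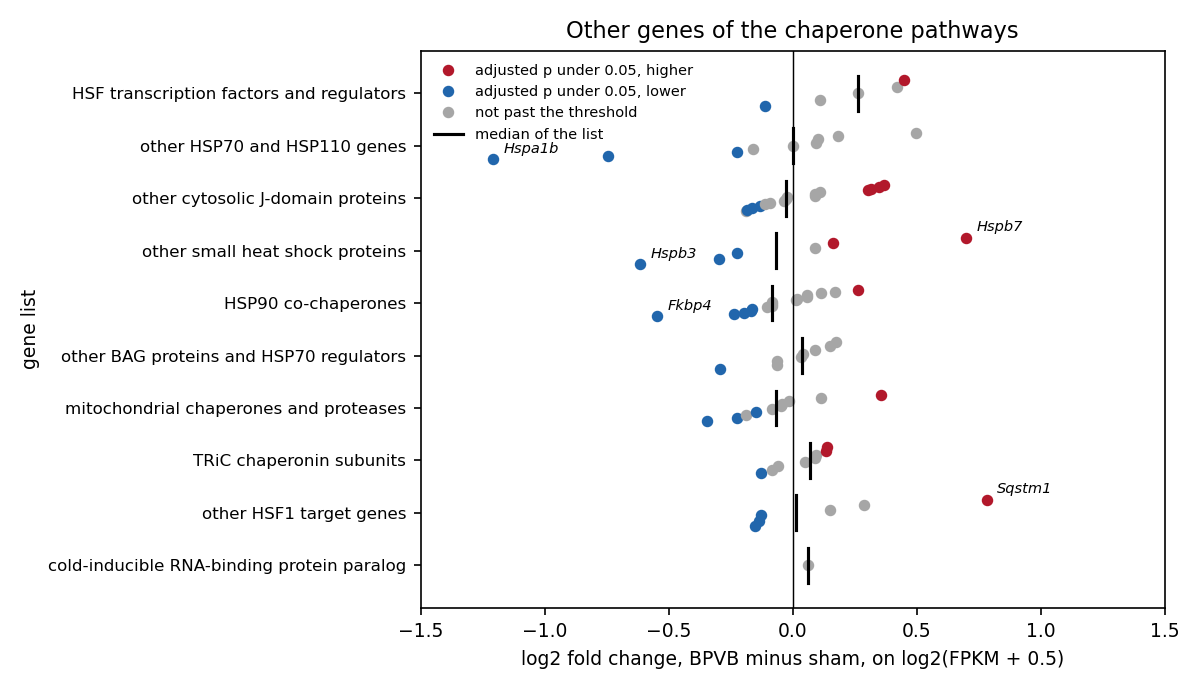
Log2 fold change (BPVB minus sham, on log2(FPKM + 0.5)) of each of the 85 tested genes, 1 row per list, with colours for the call at an adjusted p of 0.05 and a black bar at each list's median. Most points lie within 0.5 of 0, and Hspa1b, at −1.21, lies farthest out.

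Among the heat shock factors and their regulators, 1 of 5 genes was higher and 1 lower. Hsf1, the main factor of the response, lay at 12.5, 11.5 and 11.7 FPKM in the BPVB group and at 10.6, 11.4 and 11.03 FPKM in the sham group. The groups came close without overlapping, and the log2 fold change of 0.11 did not pass the test (adjusted p = 0.22, limma). Hsf2, a related factor that forms mixed trimers with HSF1, was higher at 13.6 ± 0.523 FPKM against 9.83 ± 0.264 FPKM (log2 fold change 0.45, adjusted p = 5.1e-04, limma). Hsbp1, a small protein that binds HSF1, was lower (−0.11, adjusted p = 0.038, limma), a call that was lost in 8 of the 16 alternative fits. With quantile normalization the log2 fold change of Hsbp1 was −0.024 (adjusted p = 0.655, limma).

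The stress-inducible HSP70 genes were the exception in size. Hspa1b lay at 6.95, 7.99 and 7.38 FPKM in the BPVB group and at 18.1, 18.0 and 17.4 FPKM in the sham group, on 750 to 1741 fragments per library. Every BPVB library was below the level of any sham library by more than any spread within a group. The log2 fold change was −1.21 (SE 0.066, adjusted p = 2.4e-06, limma), and Hspa1b was the 1 DEG among the 85 genes. A second entry described as heat shock 70 kDa protein 1A (LOC108348108), looked up after the values of Hspa1b were seen, lay at 4.12, 5.37 and 4.30 FPKM against 10.8, 11.2 and 10.4 FPKM (log2 fold change −1.16, adjusted p = 4.1e-05, limma). The 2 entries are near-identical copies between which counting may split reads, and the names of the copies are exchanged between the table and RefSeq. Their summed FPKM was 12.0 ± 1.19 in the BPVB group and 28.6 ± 0.741 in the sham group (mean ± SD, n = 3 each). Even in the sham group this was far below Hspa8.

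Of the 9 other tested genes of the HSP70 and HSP110 families, 3 were lower and 6 were not called. Besides Hspa1b these were Hspa12a (−0.74, adjusted p = 0.0046) and Hspa12b (−0.23, adjusted p = 0.0048, limma), distant relatives of HSP70. Among 16 other cytosolic J-domain proteins, the partners that bring substrates to HSP70, 4 were higher and 3 lower. The higher genes were Dnaja4 (0.37, adjusted p = 0.0021, limma), Dnajc5, Dnajb2 and Dnajb5, and the lower ones Dnaja1, Dnaja2 and Dnajb4. The call of Dnajc5 was lost without BPVB replicate 1 (adjusted p = 0.073) or BPVB replicate 2 (adjusted p = 0.053, limma). The calls of Dnajb4 and Dnaja2 were lost in 8 and 5 of the 16 alternative fits, those with TPM and without sham replicate 1 or 3 or BPVB replicate 1 or 3 included. Among 8 other BAG proteins and regulators of HSP70, 7 were not called and 1 was lower, namely Stub1, the ubiquitin ligase that tags HSP70 clients, at 79.5 ± 1.34 FPKM against 97.4 ± 2.63 FPKM (−0.29, adjusted p = 2.0e-04, limma).

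The other small heat shock proteins moved in both directions. Hspb7, a small heat shock protein of heart and skeletal muscle, was at 434 ± 6.15 FPKM in the BPVB group and 267 ± 3.09 FPKM in the sham group (log2 fold change 0.70, adjusted p = 1.6e-07, limma). Cryab (αB-crystallin), the most abundant of the class, was at 1373 ± 60.1 FPKM against 1224 ± 26.2 FPKM (0.16, adjusted p = 0.0052, limma). The log2 fold change of Cryab was 0.14 to 0.27 over the alternative fits. Hspb3, Hspb6 and Hspb2 were lower, Hspb3 at 31.7 ± 3.62 FPKM against 48.8 ± 2.99 FPKM (−0.62, adjusted p = 4.3e-04) and Hspb6 at 296 ± 9.43 FPKM against 363 ± 8.45 FPKM (−0.30, adjusted p = 1.2e-04, limma). Thus 2 of the 6 tested were higher and 3 lower, while Hspb1 itself was not called.

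Of the 16 co-chaperones of HSP90, 1 was higher (Tomm70, the mitochondrial import receptor that docks HSP90, 0.26, adjusted p = 0.012, limma) and 5 were lower. Fkbp4, the immunophilin of steroid receptor complexes, was at 64.7 ± 1.07 FPKM against 94.6 ± 0.323 FPKM (−0.55, adjusted p = 2.5e-06, limma). The other lower genes were Ppp5c, Stip1, Unc45b and Sugt1. The call of Ppp5c was lost without sham replicate 2 (adjusted p = 0.053, limma), and those of Sugt1 and Stip1 in 6 and 5 of the 16 alternative fits, with TPM and without BPVB replicate 2, BPVB replicate 3 or sham replicate 3 among them. The list's median was −0.08.

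Of 10 mitochondrial chaperones and proteases, 1 was higher and 3 lower. Clpx, the unfoldase of the matrix protease, was higher (0.36, adjusted p = 4.0e-04, limma). Dnajc19 and Grpel1, both tied to the mitochondrial HSP70, and Trap1, the HSP90 of mitochondria, were lower, at −0.34 (adjusted p = 0.0082), −0.15 (adjusted p = 0.015) and −0.22 (adjusted p = 0.047, limma). The call of Trap1 was lost in 7 of the 16 alternative fits (−0.14 without BPVB replicate 2) and that of Grpel1 in 2, limma-voom (adjusted p = 0.051) and the fit without sham replicate 3 (adjusted p = 0.056, limma). Of the 8 subunits of TRiC, the cytosolic chaperonin that folds actin and tubulin, Cct4 and Cct5 were higher and Cct7 lower, each by less than 0.15 on the log2 scale, and each of these calls was lost in some alternative fits.

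Of 6 further target genes of HSF1, Sqstm1, the autophagy receptor p62, was higher at 180.3 ± 3.48 FPKM against 105 ± 0.164 FPKM (log2 fold change 0.78, adjusted p = 1.9e-07, limma), and Serpinh1, Ubb and Cacybp were lower by 0.13 to 0.15 on the log2 scale. The calls of Serpinh1 and Ubb (quantile normalization, adjusted p = 0.12 and 0.13) and Cacybp (TPM and without sham replicate 2, adjusted p = 0.054 and 0.055, limma) were lost in some fits. Of 16 genes of the endoplasmic reticulum stress system, 1 was higher and 5 lower. Hspa5, the HSP70 of that compartment, was at 219.7 ± 3.66 FPKM against 274 ± 1.69 FPKM (−0.32, adjusted p = 2.1e-05, limma), and Ddit3, a transcription factor induced by unfolded proteins, was higher (0.28, adjusted p = 0.0085, limma).

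By the deposited GO terms, 6 of the 10 genes were annotated to protein folding. Of the 88 other tested genes with that term, 12 (13.6%) were higher and 17 (19.3%) lower. With the term for the cellular response to heat, which 5 of the 10 carried, 8 of 48 other tested genes (16.7%) were higher and 11 (22.9%) lower. The 56 other tested genes whose promoters held a 3-unit element, a set formed after the values were seen, included 11 (19.6%) that were higher and 5 (8.93%) that were lower. Over all genes tested, these shares were 17.2% higher and 14.3% lower, and among those that averaged 20 FPKM or more 24.5% and 27.9%. The 56 genes came from the 12200 tested genes matched to a promoter, whose own shares are not given here.

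The veins of the groups also differed in the markers of their cells. The summed cardiomyocyte markers were at 15488 to 15900 FPKM with banding and at 21295 to 21705 FPKM in the sham group, with 6 of 8 markers lower and 2 higher. In the veins of rodents a sleeve of heart muscle reaches into the wall. The smooth muscle markers were at 4616 to 4677 FPKM against 4998 to 5048 FPKM (4 of 6 lower), the endothelial markers at 915 to 927 FPKM against 1007 to 1017 FPKM (3 of 6 lower) and the fibroblast markers at 3338 to 3370 FPKM against 2946 to 2968 FPKM (3 of 5 higher, 2 lower). None of the defining markers of these types was at 0 in any library.

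Markers of other cell types moved as well. The macrophage markers were at 676 to 697 FPKM in the BPVB libraries against 224 to 234.5 FPKM (7 of 7 higher). Lyz2 made up most of the macrophage sum (592 FPKM against 163 FPKM, group means). The median log2 fold change over the macrophage markers was 0.64. The alveolar type 2 markers were at 523 to 571 FPKM against 52.7 to 54.8 FPKM (6 of 6 higher). The adipocyte markers overlapped in their sums, at 1304 to 1347 FPKM against 1303 to 1317 FPKM, with 3 of 5 higher. Fabp4 made up most of the adipocyte sum (1297 FPKM against 1299 FPKM, group means) and was not called, nor was Lep. Adipoq (18.8 FPKM against 6.3 FPKM), Plin1 (6.2 against 1.4) and Cidec (2.5 against 0.74) were higher. The erythroid markers were at 12703 to 16144 FPKM against 15215 to 18944 FPKM (1 of 5 lower) and the ciliated and club cell markers at 104.5 to 119 FPKM against 136 to 143 FPKM, with Foxj1, Scgb3a2 and Dynlrb2 at 0 in some library. Of the 3 ciliated and club cell markers tested, Tppp3, which makes up most of that sum, was lower (85.3 FPKM against 135.5 FPKM) and Scgb1a1 of club cells was higher (25.4 FPKM against 4.08 FPKM, group means, adjusted p = 1.6e-06, limma). The part of these differences in those of the heat shock response genes was not tested.

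Many transcripts that follow the time of day or the handling of tissue differed more than any of the 10 genes. The 16 clock genes summed to 137 to 143 FPKM with banding and to 436 to 438.5 FPKM in the sham group, with 4 higher and 11 lower. Dbp (−3.49) and Nr1d1 (−2.46) were lower and Arntl higher (2.91 on the log2 scale). The 12 immediate-early genes summed to 586 to 595 FPKM against 1238 to 1265 FPKM, with 10 lower and 1 higher, among them Fosb (−1.85), Fos (−1.72) and Junb (−1.52). All of these passed an adjusted p of 0.05 in limma. Heat shock genes, Hspa1b and Cirbp included, are known to vary with the time of day and with body temperature, and whether the clock or the handling of the tissue took part in the differences was not tested.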

How the data were processed

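The 10 genes and all gene lists were chosen with earlier results of these data known. The authors deposited 1 FPKM value per gene and rat. The paper names fastp, HISAT and HTSeq-count with the VAHTS Universal V6 kit, and the submitters' processing notes name HISAT2 2.0.5, StringTie 1.3.3b, featureCounts 1.5.0-p3 and DESeq2 1.20.0, with another kit in the labels. The genome build, annotation and strand setting are not given in the sources used here. Fragments were recovered from whole-number ratios of the FPKM between libraries, with library totals of 23439506 to 29725808 (BPVB mean 1.16 times the sham mean). The procedure was tested on simulated data.

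The groups were compared with limma 3.58.1 in R 4.3.3 (eBayes with a trend) on log2(FPKM + 0.5), over the 15150 genes that averaged 0.1 FPKM or more, two-sided, with Benjamini-Hochberg adjustment over all of them. Fold changes on this scale understate those of low genes. A call needs an adjusted p under 0.05 and a DEG also an absolute log2 fold change above 1. The p-values cover the spread between these rats. Ratios were compared by exact permutation.

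Named genes are the 10, up to 3 called genes per list with the largest change, a few fixed symbols and the genes most alike in profile. Dnaja1, Dnaja2, Dnajb4, Dnajb5, Hspb2, Stip1, Unc45b, Sugt1, Grpel1, Ubb, Tppp3, Scgb1a1 and LOC108348108 were added after their values were seen. The alternatives were pseudocounts of 1 and 0.1, no filter and a filter at 1, TPM, median of ratios and quantile scaling, a replicate block, robust eBayes, limma-voom on fragments (at least 10 in all libraries together), an adjusted p of 0.01 and leaving out each library. Python 3.11.15 with scipy 1.17.1 did the rest. Protein sequences were not used here, and 1 list of cell type markers is not reported here.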

Additional observations from a re-analysis of the deposited data

How the results depend on the processing

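Under the 16 alternative fits, 3 of the 10 genes were higher in each, 2 to 4 were lower and 0 were DEGs. At a stricter adjusted p of 0.01, the counts were 3 higher and 2 lower. The log2 fold changes stayed between 0.27 and 0.34 for Hsp90aa1, 0.22 and 0.28 for Hsp90ab1, 0.21 and 0.28 for Bag3, −0.25 and −0.19 for Hspd1 and −0.53 and −0.41 for Hspe1, each past the threshold. The sign of 3 genes without a call turned: Dnajb1 with median of ratios scaling (−0.013) and without sham replicate 1 or 3 (−0.013 to 0.061 over the fits that leave out a library), Hspb1 with quantile normalization (0.03, and −0.082 to −0.023 with a library left out), and Cirbp with TPM (0.021) and without BPVB replicate 2 or sham replicate 2 (−0.045 to 0.016 over such fits). The other chaperone genes called lower fell from 23 to 15 with TPM and were 16 to 19 with a library left out, and those called higher were 9 to 13. The cause was not tested. Of 59 named genes, the genes most alike in profile not counted, 37 had no change of call or direction. Median of ratios scaling, TPM and quantile normalization shifted the log2 fold changes of all genes by a median of −0.0244, 0.0315 and −0.0380. Leaving out a library gave log2 differences of 0.02 to 0.08 for the ratio of Hsp90aa1 to Hsp90ab1 and of 0.23 to 0.32 for that of Hspd1 to Hspe1.

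The replicate numbers of the groups mark no shared litter or day in the labels. Deviations of same-numbered libraries correlated at 0.03, 0.03 and 0.02, and those of differently numbered ones at −0.024 to −0.001. All of these values are small. Each library correlated best with its own number, and whether the numbers mark a pairing was not tested. With the replicate block, 3 of the 10 genes were higher and 3 lower, as without it, 13 and 21 of the other chaperone genes were, and 4539 of all genes were called, beside 4775 without the block.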
